A study of Mus musculus with 24 samples.

Results

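Hmga1, Hmga2, Lin28a, Lin28b, Igf2bp1, Igf2bp2 and Igf2bp3 are 7 genes known for growth and stem cell programmes of the embryo. They are 7 of the 20782 genes in a table of normalized read counts from mouse dorsal root ganglia, the clusters of sensory nerve cell bodies beside the spinal cord. The set was chosen by a measured value, the steep climb of Hmga2 when adult neurons were put in culture, and the question asked of it was which fetal growth regulators come back in adult neurons after plating or after a nerve lesion. Levels in culture are therefore given as a description, with no test.

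The table held 24 libraries in 8 groups of 3. Adult lumbar ganglia were dissociated, plated at low density on laminin in Neurobasal-A with B-27, and collected at 6, 12, 24 or 36 h. Adult L4 and L5 ganglia were taken after a peripheral lesion (lesion) or after sham surgery (sham), and lumbar ganglia came from embryos at E17.5 and E12.5. Strain, adult age and the interval from lesion to collection were not found in the sources used here. The labels call every library a neuron sample and attach cell sorting to all of them, without saying whether it was used on operated and embryonic tissue.

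Hmga1 and Hmga2 are architectural chromatin proteins that bind AT-rich DNA through AT-hook motifs and are abundant in embryonic and transformed cells. Lin28a and Lin28b are RNA-binding proteins that block maturation of the let-7 microRNA family. Igf2bp1, Igf2bp2 and Igf2bp3 bind messenger RNAs, among them those of Igf2 and beta-actin, and regulate their transport, stability and translation. Hmga2, Lin28a, Lin28b and the Igf2bp genes are known let-7 targets, so the set is joined by a loop in which Lin28 lowers let-7 and let-7 lowers Lin28, Hmga2 and Igf2bp messages. In sensory neurons, Igf2bp1 (also called ZBP1) is known for carrying beta-actin and Gap43 messages into axons.

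The let-7 family is shown because its seed is the sequence that the members share through their 3′ untranslated regions (UTRs). In RefSeq (GRCm38.p6), 9 mature mouse microRNAs (let-7a, b, c, d, e, f, g and i, and miR-98) carry the same seed, bases 2 to 8, in capitals here. They differ only outside the seed, as these examples show, 5′ to 3′:
let-7a: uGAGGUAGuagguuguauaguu
let-7g: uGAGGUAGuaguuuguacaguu
miR-98: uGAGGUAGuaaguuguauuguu

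A search of the longest annotated 3′ UTR of each gene (GENCODE M21, mm10, mRNA strand only) for the seed matches CTACCTC and TACCTCA, which overlap in the 8-base form CTACCTCA and are then counted once, found at least 1 match in all 7 members. Over 21024 genes with a 3′ UTR, 14.9% held a match and 3.06% held the 8-base form, which was present in 6 of the 7 members. UTR length matters for such a search. Hmga2 had 7 matches in 3014 bases, and 0.123% of the 2438 UTRs of similar length had at least as many. Lin28b had 5 matches (0.442% of UTRs of like length had at least as many). Igf2bp1 had 5 (0.828%), 3 of them of the 8-base form. The UTRs of similar length include that of the gene itself. Lin28a and Igf2bp2 had 2 each. Hmga1 and Igf2bp3 had 1 each, and 13% and 23.4% of UTRs of similar length had at least 1.

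The match nearest the stop codon is shown for each member with its flanks, as transcribed, with the matching bases in capitals. The sites are at chr10:120364217-120364246 (Hmga2, minus strand), chr17:27563277-27563306 (Hmga1, plus), chr4:134005182-134005211 (Lin28a, minus), chr10:45381015-45381044 (Lin28b, minus), chr11:95961771-95961800 (Igf2bp1, minus), chr16:22059466-22059495 (Igf2bp2, minus) and chr6:49086780-49086809 (Igf2bp3, minus), all in 3′ UTRs. They lie 58 bases past the stop codon in Hmga2, 36 in Lin28b and 1715 in Igf2bp1:
Hmga2: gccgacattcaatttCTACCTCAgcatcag
Hmga1: tcctctgttcacaaaCTACCTCtggacggt
Lin28a: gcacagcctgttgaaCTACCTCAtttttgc
Lin28b: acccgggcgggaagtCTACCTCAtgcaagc
Igf2bp1: gctgtgcgaagtaaaCTACCTCAaggtgtg
Igf2bp2: acacacaaataaaagCTACCTCAggtgttt
Igf2bp3: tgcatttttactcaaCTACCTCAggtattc
A match is a property of the letters. MicroRNAs were not measured in these libraries, so no level of let-7 is known here.

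Depth was 3.10 to 25.7 M reads per library. Replicates correlated at 0.971 to 0.993 on the log2 scale, and no replicate pair differed by as little as counting error would give (chi-square over its degrees of freedom at least 4.64). The 9 neuron markers examined were detected in every group, and so were markers of Schwann cells, satellite glia, fibroblasts, endothelium, macrophages and dividing cells, so the label of pure neurons does not describe the RNA fully. In bulk RNA, fewer cells of a type and less RNA per cell cannot be told apart. The labels do not tie libraries to separate animals, so p-values measure only the spread among these libraries, and part of it may be technical. The numbers in the library titles also run in separate series by group, with operated ganglia in the lowest and in a later series, E12.5 in another and E17.5 next to the cultures. Handling and age or treatment therefore cannot be told apart in comparisons across those series. Levels are normalized read counts, with means ± SD over the 3 libraries of a group. Differences are log2 differences ± SE of log2(value + 1), which understates changes of low genes.

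**Figure D1:**
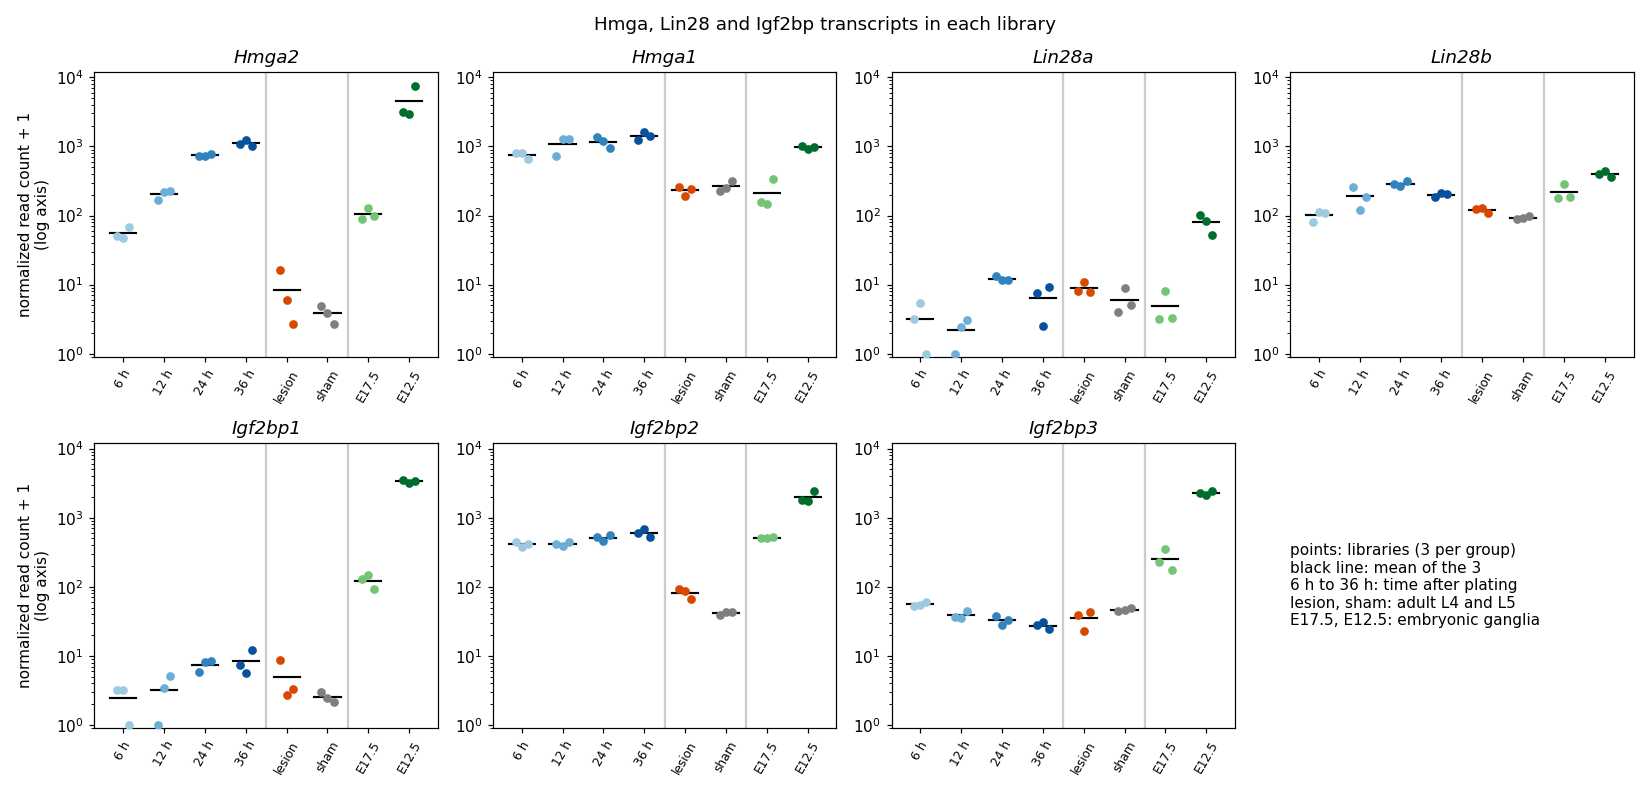
Normalized read counts plus 1 (log axis) of the 7 genes in every library, by group, with the group mean as a black line. Hmga2 climbs at each time in culture to 1111 at 36 h, Igf2bp2 is high at every culture time, Igf2bp1 stays low outside the embryo, and Igf2bp3 drifts down in culture.

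Across development, all 7 genes were lower at E17.5 than at E12.5, and 5 of the 6 that could be tested were lower again in sham ganglia than at E17.5. Igf2bp1 and Hmga2 were down to a few reads in the adult, while Lin28b and Hmga1 kept 22.7% and 27.2% of their E12.5 means in sham. Of the 14550 genes tested between embryonic ages, 31.9% were lower and 31.1% higher at E17.5 by limma (adjusted p of at most 0.05), against 7 and 0 of the 7 members. Of 14652 genes tested between sham and E17.5, 31.1% were lower and 28.9% higher in sham. Testing needed a value of at least 10 in at least 3 libraries. Hmga2 and Igf2bp1 met this for sham minus E17.5 only through E17.5, and Lin28a for E17.5 minus E12.5 only through E12.5. Their calls in those comparisons could therefore only be lower, and their p-values add no support beyond the values.

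Hmga2 had 3.94, 2.92 and 1.72 normalized counts in sham libraries, 88.8, 127 and 97.1 at E17.5, and 3193, 2981 and 7595 at E12.5. The groups are far apart, and the E12.5 replicates are themselves uneven, with replicate 3 well above the others. The sham values come from 11 reads in all (exact Poisson 95% interval 5.49 to 19.7 reads, counting error only). Hmga2 averaged 104 ± 20.1 at E17.5 and 4589 ± 2605 at E12.5 (SD, n = 3 each), a log2 difference of -5.32 ± 0.33 (limma, adjusted p = 3.3e-06), and sham minus E17.5 was -4.79 ± 0.34 (limma, adjusted p = 3.7e-06).

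Hmga1, its relative with the same AT-hook motifs, was still well detected in the adult. It had 226, 253 and 313 counts in sham, 158, 145 and 338 at E17.5, and 1020, 926 and 971 at E12.5. The E17.5 libraries were all below E12.5 (log2 difference -2.29 ± 0.29, limma adjusted p = 1.7e-04), while the sham libraries lay inside the E17.5 range (sham minus E17.5 0.40 ± 0.30, limma adjusted p = 0.263). That last comparison turned on 1 library. Without E17.5 replicate 3 the difference was 0.79 (adjusted p = 0.00265). Of the 50-base stretches in Hmga1 transcripts, 55% also occur in other genes, and how such reads were counted is not given in the sources used here. Absolute levels of Hmga1 are therefore uncertain.

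Lin28a was low in all but E12.5, with 2.95, 8.04 and 4.01 counts in sham, 2.19, 7.05 and 2.31 at E17.5, and 101, 82.9 and 51.9 at E12.5. Its E17.5 values come from 8 reads, and the E17.5 minus E12.5 log2 difference was -4.13 ± 0.46 (limma, adjusted p = 8.0e-05). Sham and E17.5 overlapped, and the gene was below the filter there (a value of at least 10 in at least 3 libraries). Lin28b persisted instead, with 86.6, 90.6 and 96.9 counts in sham, 178, 286 and 183 at E17.5, and 401, 445 and 363 at E12.5. None of these 3 groups overlapped. Its log2 differences were -1.20 ± 0.20 for sham minus E17.5 (limma, adjusted p = 7.3e-04) and -0.93 ± 0.20 for E17.5 minus E12.5 (adjusted p = 0.00374).

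Among the messenger-binding proteins, Igf2bp1 had 1.97, 1.46 and 1.15 counts in sham (6 reads), 129, 145 and 92.5 at E17.5, and 3538, 3167 and 3432 at E12.5. No 2 of these groups overlapped, and the sham mean was 0.0451% of the E12.5 mean. The log2 differences were -5.59 ± 0.34 for sham minus E17.5 (limma, adjusted p = 1.3e-06) and -4.80 ± 0.17 for E17.5 minus E12.5 (adjusted p = 3.8e-07). Igf2bp2, the family member most widely kept in adult tissues, had 38.4, 41.7 and 42.4 counts in sham, 515, 508 and 523 at E17.5, and 1818, 1726 and 2423 at E12.5. Its difference was -3.63 ± 0.14 for sham minus E17.5 (limma, adjusted p = 1.4e-07) and -1.93 ± 0.15 for E17.5 minus E12.5 (adjusted p = 9.0e-06), again with groups far apart. Igf2bp3 had 43.3, 45.3 and 48.2 counts in sham, 229, 353 and 176 at E17.5, and 2311, 2136 and 2398 at E12.5. Its differences were -2.38 ± 0.24 (limma, adjusted p = 3.5e-05) and -3.23 ± 0.23 (adjusted p = 6.2e-06) for the same comparisons, so that most of its loss on this scale was already present at E17.5.

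Markers of dividing cells fell with all 7 genes from E12.5 to E17.5, and with all tested members except Hmga1 from E17.5 to sham. All 8 of 8 markers were lower in sham than at E17.5 and lower at E17.5 than at E12.5. Their summed level was 240 to 358 in sham, 2923 to 3957 at E17.5 and 19563 to 21061 at E12.5. Fibroblast markers were lower in sham than at E17.5 in 4 of 6 cases and higher in 1, with summed levels of 7800.01 to 10124 in sham and 30943 to 39603 at E17.5. Of the neuron markers, 8 of 9 were higher at E17.5 than at E12.5. The part of these shifts in the falls of the 7 genes was not tested. The genes most like Igf2bp1 across the 8 group means, by the root mean square difference of centred log2 levels over 15935 genes, included the mitotic genes Ccnb1 (1.02) and Cenpf (1.02), with Gpc2 (1.03), Nhlh1 (1.10) and Col9a1 (1.16). Some Nhlh1 values were replaced outliers, which limits its place in that order.

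**Figure D2:**
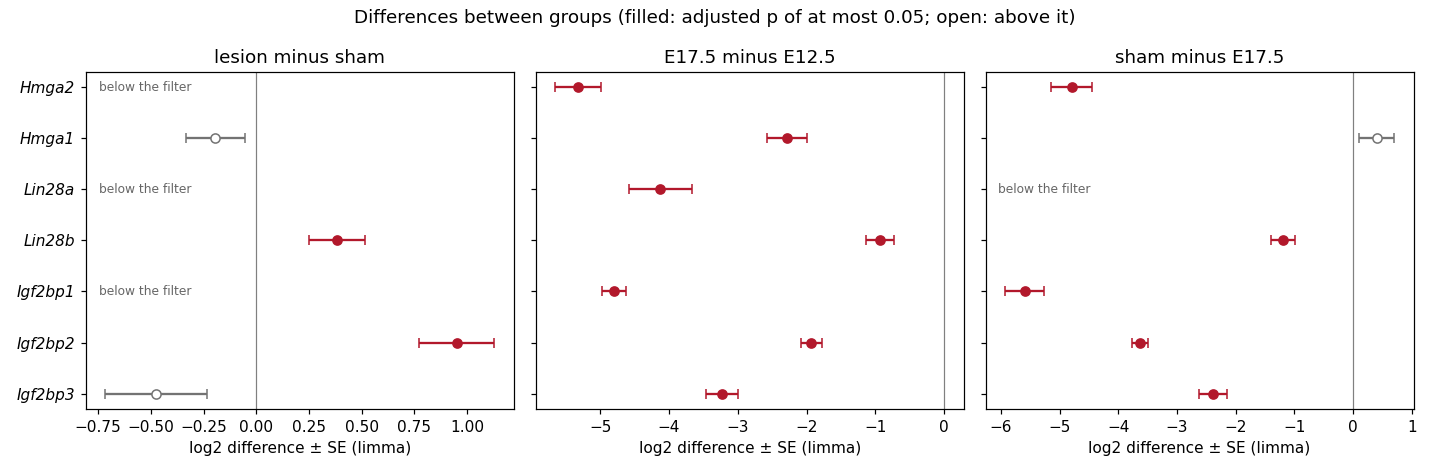
Log2 differences ± SE from limma for lesion minus sham, E17.5 minus E12.5 and sham minus E17.5, 3 libraries per group. All 7 genes lie left of 0 between the embryonic ages, Hmga1 alone is right of 0 and not called for sham minus E17.5, and Igf2bp2 (0.95) and Lin28b (0.38) are the called genes after lesion.

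After a peripheral lesion the return was narrow. Igf2bp2 about doubled and Lin28b was modestly higher, no member was called lower by limma, edgeR or DESeq2, and Hmga1 and Igf2bp3 did not pass, with limma also not before adjustment. Hmga2, Lin28a and Igf2bp1 stayed at a handful of reads, below the filter. Of 14556 genes tested, limma called 20.9% higher and 20.2% lower, against 2 and 0 of the 4 members tested, a share over too few genes to be read as more than the background.

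Igf2bp2 had 91.3, 85.2 and 65.3 counts in lesion ganglia, against 38.4, 41.7 and 42.4 in sham. Every lesion library lay above every sham library. The means were 80.6 ± 13.6 and 40.8 ± 2.16 (SD, n = 3 each), a 1.97-fold level and a log2 difference of 0.95 ± 0.18 (limma, adjusted p = 9.2e-04). The rise held in direction and call under all 16 alternatives, and lesion Igf2bp2 was still 4.05% of the E12.5 mean.

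Lin28b had 123, 129 and 108 counts in lesion ganglia, against 86.6, 90.6 and 96.9 in sham. The groups did not overlap, as held for 26.3% of all genes in the higher direction, and the means were 119.7 ± 10.9 and 91.4 ± 5.20 (SD, n = 3 each), a log2 difference of 0.38 ± 0.13 (limma, adjusted p = 0.0349). This call is fragile. It was lost with DESeq2 on the recovered reads (adjusted p = 0.0925), with 1 spread estimated over all libraries (0.243), and without each single library except lesion replicate 3: without lesion replicates 1 and 2 in turn (0.0935 and 0.0878) and without sham replicates 1, 2 and 3 in turn (0.110, 0.0863 and 0.0503). Its direction held in each case, and with the library number series as a term the adjusted p was 0.048.

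Igf2bp3 had 37.9, 21.7 and 41.6 counts in lesion ganglia against 43.3, 45.3 and 48.2 in sham. Although no lesion library reached the sham range, 26.3% of all genes tested were lower without overlap, and the log2 difference of -0.47 ± 0.24 did not pass (limma, adjusted p = 0.133). It rested largely on lesion replicate 2, without which it was -0.19. For Hmga1, lesion libraries had 261, 190 and 241 counts against 226, 253 and 313 in sham, with overlapping groups (log2 difference -0.19 ± 0.14, limma adjusted p = 0.288).

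Hmga2 had 15.5, 5.01 and 1.73 counts in lesion ganglia, against 3.94, 2.92 and 1.72 in sham. These are 20, 3 and 3 reads in lesion libraries, against 4, 4 and 3 reads in sham, so that only lesion replicate 1 stands out, and without the filter the log2 difference was 0.79 (limma, adjusted p = 0.329). Igf2bp1 had 7.74, 1.67 and 2.31 counts in lesion ganglia (15 reads) against 1.97, 1.46 and 1.15 in sham (6 reads), likewise with replicate 1 highest and the groups overlapping. Lin28a had 6.97, 10.0 and 6.94 counts in lesion ganglia against 2.95, 8.04 and 4.01 in sham. A change in these 3 genes was not detectable at this depth.

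Markers of other cells shifted with the lesion too. Fibroblast markers were higher in 6 of 6 cases (summed level 10243 to 12378 in lesion, 7800.01 to 10124 in sham), and macrophage markers in 5 of 6 (1516 to 2276 in lesion, 693 to 719 in sham). Of 6 dividing cell markers tested, 0 were called higher and 0 lower, and their summed levels overlapped (331 to 509 in lesion, 240 to 358 in sham). The part of these cells in the rises of Igf2bp2 and Lin28b was not tested.

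In culture, 4 of the 7 genes stood clearly above sham ganglia at 36 h, and they differed in when they did so. Hmga2, Igf2bp2 and Hmga1 were already above sham at 6 h, where Lin28b overlapped with it. Igf2bp2 and Hmga1 were higher again at 36 h (1.47-fold and 1.89-fold the 6 h mean), Hmga2 climbed at every time, and Lin28b peaked at 24 h. Igf2bp1 and Lin28a stayed low, with at most 42 reads at any time, and Igf2bp3 was lower at 36 h than at 6 h. Igf2bp1, which did not pass the filter, was still above every sham library at 24 and 36 h (27 and 21 reads, against 6 in sham). Lin28a was above every sham library at 24 h (42 reads, against 21 in sham). It was below all of them at 12 h (6 reads) and overlapped with them at 6 and 36 h. Counting groups that do not overlap among the 6 members passing the filter (Lin28a only through its 24 h values), 4 were higher and 1 lower at 36 h than in sham, where 36.7% of all genes were higher and 36.4% lower. At 6 h, 4 were higher and 0 lower than in sham, against 30.2% and 33.9% of all genes. Nothing is read from these counts, since a rise in culture chose the set.

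Hmga2 had 49.4, 46.2 and 67.0 counts at 6 h, 168, 220 and 226 at 12 h, 738, 719 and 786 at 24 h, and 1088, 1245 and 1002 at 36 h. No 2 neighbouring times overlapped. The 36 h mean of 1111 ± 124 was 20.5-fold the 6 h mean of 54.2 ± 11.2, 10.7-fold the E17.5 mean and 24.2% of the E12.5 mean. The 6 h mean was already 18.9-fold the sham mean and the 36 h mean 389-fold, ratios that rest on 11 sham reads. From 12 h on, every cultured library was above every E17.5 library. A processed copy listed as Hmga2-ps1 had other levels, with means of 242, 502, 288 and 383 at the 4 times and 130 in sham, and its 24 h mean lay below its 12 h mean while that of Hmga2 lay above. In the embryo the 2 moved together. The copy had 426, 368 and 854 counts at E12.5, with replicate 3 highest as for Hmga2, and a mean of 82.8 at E17.5. Sequence shared between Hmga2 and this copy was not compared here, as the copy is not in the annotation used under that name. Whether reads were shared between them is therefore not known.

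Genes with the nearest pattern to Hmga2 over the 8 group means were Dusp9, Foxa1, Cpa4, Slc32a1 and Cdt1, at root mean square differences of 1.44 to 1.77 log2 units, so none followed it closely. Dusp9, a phosphatase of MAP kinases, had means of 6.64, 25.3, 114 and 77.3 from 6 to 36 h, against 0.435 in sham. Cdt1, a DNA replication licensing factor and the least near of these genes, had 63.0, 119.7, 155 and 200.2, against 10.9 in sham.

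**Figure D3:**
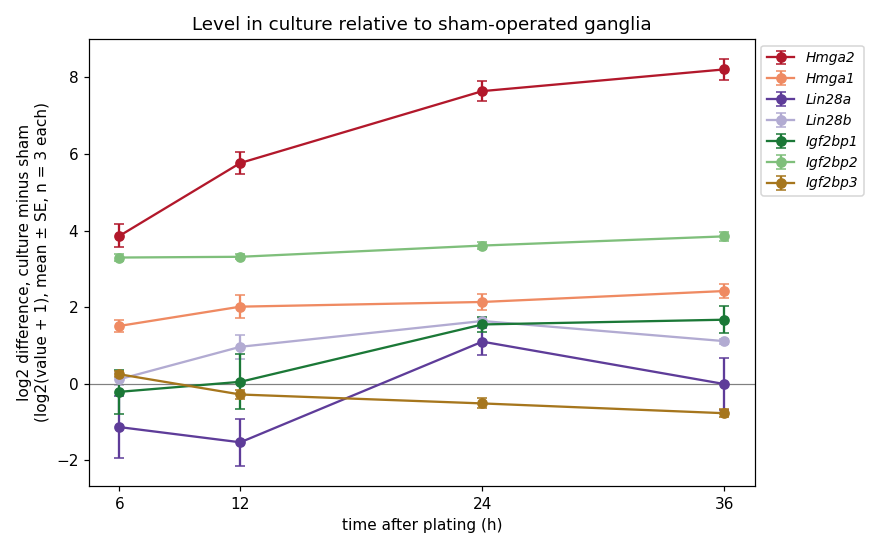
Log2 difference from sham (log2(value + 1), mean ± SE, 3 libraries per group) of the 7 genes at 6, 12, 24 and 36 h after plating. Hmga2 goes up throughout to 8.21, Igf2bp2 lies between 3.30 and 3.85 at all times, Lin28b tops out at 24 h (1.64) and Igf2bp3 ends at -0.77.

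Hmga1 had 795, 789 and 666 counts at 6 h, 736, 1270 and 1276 at 12 h, 1367, 1194 and 943 at 24 h, and 1224, 1613 and 1413 at 36 h. Every cultured library was above every sham library, neighbouring times overlapped, and no 36 h library overlapped with 6 h. The 36 h mean of 1416 ± 195 was 5.36-fold the sham mean and 146% of the E12.5 mean. Hmga1 was thus the only member whose mean in culture passed that of the early embryo. This ranking is limited by the sequence Hmga1 shares with other genes (55% of its 50-base stretches). AI413582 also overlaps with 4.8% of its exon bases on the other strand, and the kit does not mark strand. AI413582 averaged 141 at 36 h and 20.4 at E12.5.

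Lin28b had 79.9, 112 and 109 counts at 6 h, overlapping with the sham libraries (86.6 to 96.9). It had 257, 120 and 186 at 12 h, 285, 265 and 311 at 24 h, and 186, 208 and 203 at 36 h. The 24 h libraries were above all sham, 6 h, 12 h and 36 h libraries. Means were 3.14-fold the sham mean at 24 h and 2.18-fold at 36 h, and the 36 h range overlapped with that of E17.5. Lin28a had 2.18, 4.40 and 0 counts at 6 h, 0, 1.46 and 2.05 at 12 h, 12.3, 10.5 and 10.5 at 24 h, and 6.47, 1.55 and 8.31 at 36 h. It was highest at 24 h as well, but from 42 reads in 3 libraries, at 14.2% of the E12.5 mean.

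Several genes followed Lin28b closely over the 8 group means. They were Cklf (root mean square difference 0.177), Snap23 (0.188), Galnt7 (0.191), Ccne2 (0.196) and Sf3a3 (0.209). Cklf, the nearest, had means of 12.9, 28.8, 43.2 and 34.9 in culture, 15.8 in lesion and 16.7 in sham ganglia, 40.1 at E17.5 and 68.0 at E12.5. Ccne2, a cyclin of the G1 to S step, had means of 50.5, 83.5, 121.6 and 76.5 in culture, 48.0 in lesion and 31.9 in sham ganglia, 104 at E17.5 and 221 at E12.5.

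Igf2bp2 had 447, 377 and 409 counts at 6 h, 409, 392 and 446 at 12 h, 519, 455 and 558 at 24 h, and 602, 682 and 530 at 36 h. Its rise was early, 10.1-fold the sham mean at 6 h and 14.8-fold at 36 h, with all 12 cultured libraries above all lesion libraries. The 36 h mean of 605 ± 76.2 was 117% of the E17.5 mean and 30.4% of the E12.5 mean. Igf2bp1 had 2.18, 2.20 and 0 counts at 6 h, 0, 2.44 and 4.10 at 12 h, 4.92, 7.03 and 7.29 at 24 h, and 6.47, 4.65 and 11.1 at 36 h. The 21 reads at 36 h amount to 0.219% of the E12.5 mean and 6.06% of the E17.5 mean, so the member best known in axons did not regain an embryonic level.

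Igf2bp3 had 50.8, 52.8 and 59.9 counts at 6 h, 35.1, 34.1 and 43.7 at 12 h, 36.9, 27.2 and 31.6 at 24 h, and 27.0, 29.5 and 23.1 at 36 h. At 6 h all libraries were above sham and at 36 h all were below it, with a 36 h mean of 26.5 ± 3.22 against 45.6 ± 2.45 in sham. Of the Igf2bp3 exon bases, 18.7% overlap with Malsu1 on the other strand, and the kit does not mark strand. Malsu1 averaged 53.1 at 36 h and 49.9 in sham, so reads of these genes cannot be fully told apart at this low level.

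Per kilobase of exon, which allows levels to be set side by side between genes, the Igf2bp family changed its makeup. At E12.5 the 3 genes were close to even, with Igf2bp1 at 39.0% ± 2.37 of the family sum, Igf2bp2 at 29.8% ± 3.28 and Igf2bp3 at 31.2% ± 0.95 (SD, n = 3). At E17.5 Igf2bp2 led with 62.1% ± 7.67, and Igf2bp1 had 11.1% ± 1.45. In sham ganglia Igf2bp2 and Igf2bp3 were level at 49.0% ± 0.62 and 49.6% ± 0.61. The Igf2bp3 shares may hold reads of Malsu1, which overlaps with 18.7% of its exon bases and averaged 49.9 in sham, beside 45.6 for Igf2bp3. This limits the shares most in adult and cultured groups, where Igf2bp3 was low.

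In lesion ganglia Igf2bp2 made up 70.6% ± 9.04 of the family, with libraries from 62.3% to 80.2%, all above the sham libraries (48.5% to 49.7%). In culture it was 89.0% ± 1.17 at 6 h and 95.3% ± 0.51 at 36 h, while Igf2bp1 was 0.93% ± 0.52 at 36 h. The RNA of plated adult ganglia and of early embryonic ganglia thus differed in its Igf2bp makeup: nearly all Igf2bp2 in one, a near-even mix in the other. Which cells held the Igf2bp2 message was not tested.

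**Figure D4:**
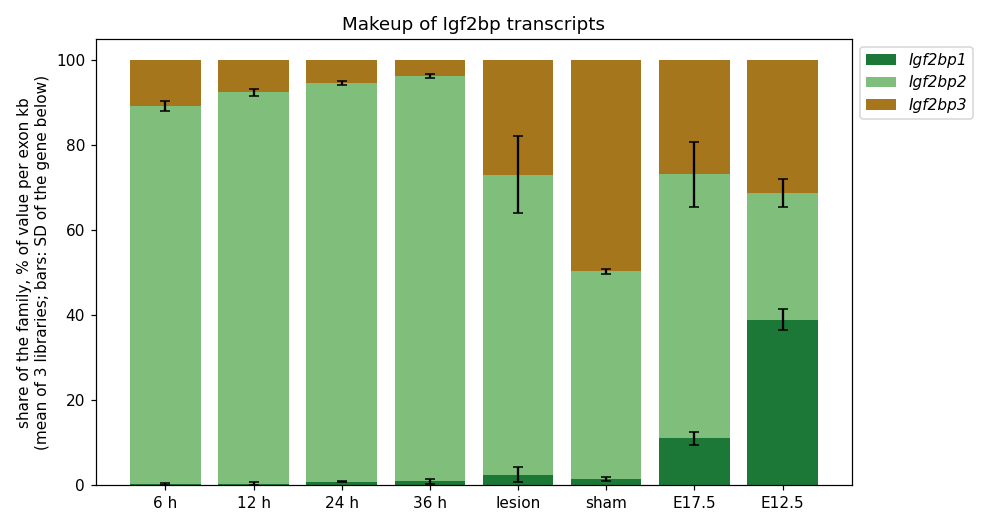
Share of Igf2bp1, Igf2bp2 and Igf2bp3 in the summed normalized count per exon kilobase, as the mean of 3 libraries per group, with SD bars on the upper edge of Igf2bp1 and Igf2bp2. Igf2bp2 fills 95.3% at 36 h, 70.6% after lesion and 49.0% in sham, and Igf2bp1 is a large part only at E12.5 (39.0%). Igf2bp3 shares may include reads of Malsu1.

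**Figure D5:**
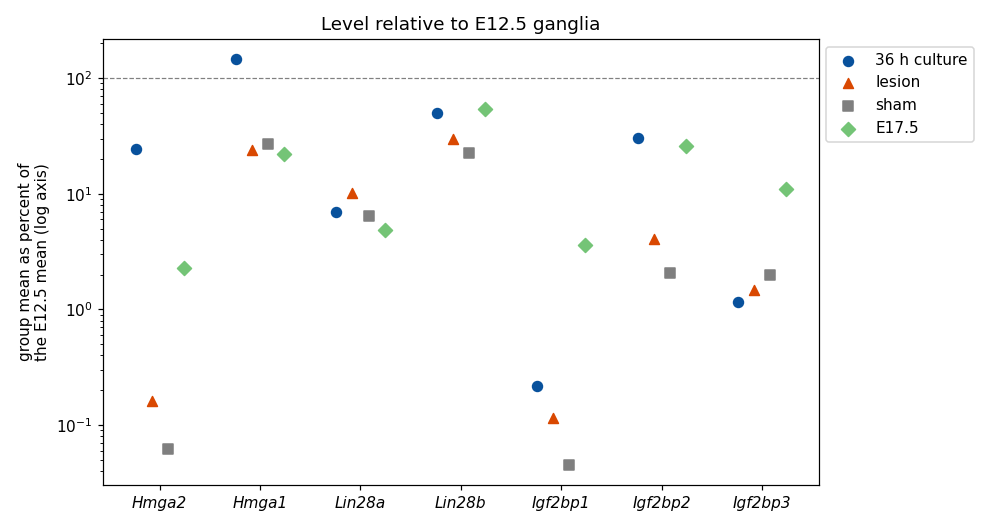
Mean level at 36 h in culture, after lesion, in sham and at E17.5 as a percent of the E12.5 mean (log axis; dashed line at 100%). At 36 h Hmga1 stands at 146%, Lin28b at 49.4%, Igf2bp2 at 30.4% and Hmga2 at 24.2%, while Igf2bp3 (1.16%) and Igf2bp1 (0.219%) lie far below.

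Lists of genes that work with the members or are known as their targets were counted in the same fits, all adjusted over every gene tested. The microRNA processing list holds the enzymes that make let-7 and the proteins that act with Lin28 on it. After lesion 8 of 17 tested were higher and 2 lower, where 20.9% of all genes were higher and 20.2% lower. With 1 spread estimated over all libraries the number called was 4. Their median log2 difference was 0.22, against -0.01 over all genes. Khsrp, which promotes let-7 maturation, was at 659 ± 38.0 in lesion and 444 ± 35.0 in sham (log2 difference 0.57 ± 0.09, limma adjusted p = 2.0e-04). Zcchc11, the uridylyl transferase that Lin28 recruits to let-7 precursors, was at 158 ± 17.7 in lesion and 108 ± 2.64 in sham (0.53 ± 0.13, adjusted p = 0.00456). Hnrnpa1, which binds the let-7a precursor, was lower (-0.64 ± 0.13, adjusted p = 0.00146).

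At 36 h in culture 11 of the 17 processing genes were higher than in sham and 1 lower, where limma called 32.1% of all genes higher and 31.9% lower. Zcchc11 averaged 436 ± 27.6 at 36 h and 108 ± 2.64 in sham (log2 difference 1.99 ± 0.17, adjusted p = 1.3e-08), and it was at 448 ± 45.8 by 6 h. Xpo5, the export factor of microRNA precursors, was higher (1.62 ± 0.19, adjusted p = 6.2e-07) and Prkra, a Dicer partner, lower (-0.92 ± 0.15, adjusted p = 3.7e-05). Between embryonic ages 11 of 18 were lower at E17.5 and 1 was higher, against 31.9% and 31.1% of all genes. Msi1, an RNA-binding partner of Lin28, was at 16.0 ± 4.84 at E17.5 and 397 ± 112 at E12.5. Trim71, the ubiquitin ligase and let-7 target also called Lin41, was at 1.61 ± 1.78 at E17.5 and 91.8 ± 12.4 at E12.5, and like Lin28a it stayed low in culture (9.67 ± 4.17 at 24 h, 3.76 ± 1.04 in sham).

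Of 27 known let-7 targets other than the members, 13 were higher and 1 lower after lesion, with a median log2 difference of 0.32, against -0.01 over all genes (20.9% higher, 20.2% lower). Bach1, a repressor of haem oxygenase, was at 1947 ± 374 in lesion and 641 ± 23.8 in sham (log2 difference 1.58 ± 0.12, limma adjusted p = 2.3e-06), and Thbs1, a matrix glycoprotein, was also higher (1.36 ± 0.31, adjusted p = 0.016). E2f6, a repressing E2F factor, was lower (-0.44 ± 0.07, adjusted p = 2.8e-04). The number called in this list was 8 without sham replicate 1 and 6 with 1 spread over all libraries.

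At 36 h 17 of the 27 targets were higher than in sham and 3 lower, where 32.1% of all genes were higher and 31.9% lower (median 0.67, against 0.01 over all genes). Ccnd1, the cyclin of G1 progression, averaged 9620 ± 703 at 36 h against 889 ± 118 in sham (log2 difference 3.44 ± 0.12, adjusted p = 2.3e-13). Myc, a growth transcription factor, averaged 1311 ± 180 against 214 ± 19.0 in sham (2.60 ± 0.13, adjusted p = 1.5e-11). Between embryonic ages 22 of 27 were lower at E17.5 and 2 higher, against 31.9% and 31.1% of all genes. Ccnd2 was at 1503 ± 148 at E17.5 and 8772 ± 2384 at E12.5, while Myc went the other way, at 741 ± 122 at E17.5 and 329 ± 63.5 at E12.5 (log2 difference 1.17 ± 0.18, adjusted p = 5.5e-04).

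Between sham and E17.5, 11 of 17 processing genes, 19 of 27 let-7 targets and 11 of 14 genes of the insulin-like growth factor axis were lower in sham, against 31.1% of all genes. Those higher in sham were 4 of the targets, Irs2 among them (log2 difference 1.11 ± 0.30, limma adjusted p = 0.0102), and 2 of the axis. Igf2 itself was at 1761 ± 192 in sham and 26853 ± 2614 at E17.5 (-3.93 ± 0.11, adjusted p = 7.2e-08). The fibroblast markers, lower in sham in 4 of 6 cases, moved with it, and their part in this fall was not tested.

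In the insulin-like growth factor axis, 8 of 15 genes were higher and 5 lower at 36 h than in sham, against 32.1% and 31.9% of all genes. Igf2, the fetal growth factor whose message gave these binding proteins their name, averaged 560 ± 50.8 at 6 h, 515 ± 113 at 12 h, 286 ± 62.7 at 24 h and 253 ± 64.2 at 36 h. Sham ganglia had 1761 ± 192, so Igf2 was lower at 36 h (log2 difference -2.82 ± 0.20, adjusted p = 1.5e-09) where Igf2bp2 was high. After lesion Igf2 was at 2818 ± 702 against 1761 ± 192 in sham (0.65 ± 0.18, adjusted p = 0.0238), and 7 of 14 genes of the axis were higher with none lower, against 20.9% and 20.2% of all genes. The number called was 4 without sham replicate 1 and 3 with 1 spread over all libraries. Fibroblast markers were higher after lesion and lower at 6 h than in sham in all 6 cases each. From 6 to 36 h 3 of 6 were higher and 0 lower, while Igf2 was lower. At E17.5 4 of 6 were higher and 1 lower than at E12.5, while Igf2 averaged 26853 ± 2614 and 32319 ± 25129 at these ages. The part of these cells in the Igf2 values was not tested.

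Igfbp3, a secreted binding protein of the growth factors, was higher in both settings. It was at 820 ± 135 in lesion and 277 ± 25.7 in sham (log2 difference 1.55 ± 0.12, adjusted p = 1.1e-06), and at 4680 ± 248 at 36 h in culture (4.08 ± 0.11 above sham, adjusted p = 7.8e-15). Irs2, an adaptor of insulin receptors, was higher after lesion (1.30 ± 0.15, adjusted p = 1.5e-04) and at 36 h (1.59 ± 0.27, adjusted p = 7.0e-05). These comparisons share the sham libraries.

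Of 10 messages known to be bound by Igf2bp proteins, 6 were higher and 1 lower after lesion (20.9% and 20.2% of all genes), led by Gap43, the growth cone protein, at 11375 ± 1923 in lesion and 4323 ± 302 in sham (log2 difference 1.38 ± 0.11, limma adjusted p = 3.2e-06). At 36 h 4 were higher than in sham and 5 lower (32.1% and 31.9% of all genes). Cd44, a hyaluronan receptor, was at 16429 ± 2259 at 6 h and 4396 ± 363 in sham (1.90 ± 0.15, adjusted p = 1.8e-08). The list was mixed in culture, with a median of -0.33 at 36 h. After lesion the number called was 3 without sham replicate 1, 4 without sham replicate 2 and 2 with 1 spread over all libraries.

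Other high mobility group proteins, which also shape chromatin, were counted beside Hmga1 and Hmga2. Between embryonic ages 10 of 11 were lower at E17.5 and 1 higher, against 31.9% and 31.1% of all genes. Hmgb2 was among the lower ones (305 ± 66.2 at E17.5, 2213 ± 116 at E12.5). After lesion 2 of 11 were higher and 0 lower, where 20.9% of all genes were higher and 20.2% lower. The differences were small (Hmgb3 0.40 ± 0.11 and Hmgxb3 0.23 ± 0.09, limma adjusted p = 0.00851 and 0.0491), and 1 was called without each sham replicate in turn and 0 with 1 spread over all libraries. At 36 h 4 of 11 were higher than in sham and 1 lower (32.1% and 31.9% of all genes), led by Hmgn1 (1.26 ± 0.14, adjusted p = 3.8e-07).

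Cell cycle inhibitors and partners linked to Hmga2 were mixed, with 1 of 11 higher and 2 lower after lesion (20.9% and 20.2% of all genes). At 36 h 4 were higher and 5 lower than in sham (32.1% and 31.9% of all genes). Cdkn1a, the inhibitor p21, was higher in both, at 5233 ± 1047 in lesion (log2 difference 1.84 ± 0.12, adjusted p = 2.4e-06) and 6997 ± 195 at 36 h (2.28 ± 0.12, adjusted p = 4.8e-11), against 1442 ± 80.9 in sham. Cdkn2d was lower in both (-0.51 ± 0.08, adjusted p = 2.0e-04, and -1.71 ± 0.14, adjusted p = 9.4e-09).

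Of other regulators of the embryonic stage, 10 of 16 were higher and 1 lower at 36 h than in sham (32.1% and 31.9% of all genes). After lesion 4 of 15 were higher and 1 lower (20.9% and 20.2% of all genes). The number called after lesion was 3 without lesion replicate 2, sham replicate 1 or sham replicate 3, and 2 with 1 spread over all libraries. Sox11, a factor of immature neurons, was at 2145 ± 549 in lesion and 3850.1 ± 136 at 36 h, against 282 ± 41.0 in sham (log2 differences 2.90 ± 0.19, adjusted p = 1.2e-05, and 3.78 ± 0.15, adjusted p = 8.2e-13). Sox2, a progenitor and glial factor, was at 1801 ± 51.7 at 36 h and 253 ± 27.0 in sham (2.83 ± 0.17, adjusted p = 1.5e-10).

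The cells held in the dish also differed from those in the ganglion. At 36 h 8 of 9 neuron markers were lower than in sham, 6 of 6 endothelial markers were higher (summed level 4216 to 5710 at 36 h, 1156 to 1344 in sham), and 4 of 4 satellite glia markers were lower. Schwann cell markers were lower in 5 of 8 cases and higher in 2. Fibroblast markers were lower in 4 of 6 cases and higher in 0, and macrophage markers lower in 3 of 5 tested and higher in 1. Dividing cell markers summed to 350 to 555 at 36 h, 240 to 358 in sham and 19563 to 21061 at E12.5. Of 7 tested, 1 was higher at 36 h than in sham. Within culture their sum was 245 to 256 at 6 h, 179 to 222 at 12 h and 130 to 211 at 24 h. From 6 to 36 h, 4 of these 7 were higher and 0 lower. Endothelial markers were then higher in 6 of 6 cases, and neuron markers lower in 5 of 9 and higher in 0. Macrophage markers were higher in 3 of 5 and fibroblast markers in 3 of 6, with 0 lower. Schwann cell markers went both ways (3 higher, 4 lower of 8), as did satellite glia markers (1 and 1 of 4). The part of these shifts in the levels of Hmga2, Hmga1, Lin28b and Igf2bp2 was not tested.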

How the data were processed

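The authors deposited 1 signal value per gene and library, a normalized read count that equals reads divided by 1 factor per library. The division was read from the values: 339603 values of up to 1000 reads were checked and 100% were whole within 0.1 reads. TopHat and mm10 are named per the submitters' processing notes; the counting tool and annotation were not found in the sources used here, nor was the treatment of reads shared by near-identical genes. In 48 genes, 89 values looked like outliers replaced before deposit, among them H19, Dlk1 and Mycl, and in 0 of the members.

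Tests used limma 3.58.1 (R 4.3.3) on log2(value + 1), eBayes with trend and robust, for genes with at least 10 in at least 3 libraries of the fit, with Benjamini-Hochberg adjustment over all genes and a threshold of 0.05. Lesion with sham, E17.5 with E12.5, and sham with E17.5 each had their own fit; the 4 culture times with sham had 1 fit, used for listed genes only. The unit differed from plain counts, so edgeR 4.0.16 and DESeq2 1.42.0 on recovered reads served as alternatives, beside pseudocount, filter, scaling, pooled fit and left-out libraries. The library number series as a term was an alternative chosen after seeing the data. One item is not reported here. Scripts were tested on simulated data.

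The members and lists were chosen with earlier results of these data known. Named list genes are up to 2 called genes per direction and comparison with the largest difference, with no overlap between groups and at least 100 as the larger mean, with others (Trim71, and Igf2 at all times) chosen after their values were seen. GENCODE M21 gave positions, exon lengths and UTRs, and RefSeq the microRNAs. Depth was 3.10 to 25.7 M reads per library, so values behind few reads carry a large counting error.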

Additional observations from a re-analysis of the deposited data

How the results depend on the processing

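No paired analysis was possible because the labels carry no replicate numbers shared between groups. The library number series in the titles was fitted as a term for lesion minus sham instead, and Igf2bp2 and Lin28b were still called. With 1 spread estimated over all libraries, 1581 genes were higher and 1034 lower after lesion, against 3043 and 2947 in the fit of lesion and sham alone. Leaving out each library in turn gave 2398 to 2828 higher and 2162 to 2924 lower after lesion, 3648 to 4437 higher and 3664 to 4667 lower at E17.5 than at E12.5, and 3248 to 4540 higher and 3801 to 4590 lower in sham than at E17.5. Of the tested members under all alternatives, 242 values kept direction and call, 7 lost the call (all Lin28b after lesion) and 1 gained it (Hmga1, sham minus E17.5). None reversed. The causes were not tested. Under scaling by library total the median log2 difference of all genes was -0.245 for sham minus E17.5 and 0.202 for 36 h minus 6 h, against -0.026 and 0.014 in the values as deposited. A pseudocount of 5 gave a log2 difference of 7.15 for Hmga2 at 36 h from sham, against 8.21 with 1. It gave 2.91 for Hmga2 at 6 h from sham, against 3.86, and 0.89 for Igf2bp1 at 36 h from sham, against 1.67. Scaling by library total gave 0.74 for Igf2bp2 and -0.83 for Igf2bp3 at 36 h minus 6 h, against 0.55 and -1.02 as deposited. For Lin28b at 36 h from sham it gave 1.28, against 1.12. Depth limits Hmga2, Lin28a and Igf2bp1 in adult ganglia.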
